A study of Mus musculus with 6 samples.

Results

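Translation initiation and elongation factors are the proteins that place a ribosome on an mRNA, find the start codon and move the ribosome along the message. Their genes were taken from the RNA-seq tables by symbol, as every gene that begins with Eif1 to Eif6, Eef1 or Eef2, with the exception of Eif2ak2. The rule itself uses no measured value, but the set was chosen with earlier results of these data known. The rule found 77 of 54532 named genes, of which 67 are annotated as protein coding, 9 as processed pseudogenes and 1, Eif2c5, as a lincRNA. RNA came from whole anterior prostate (AP) of male mice aged 20 weeks, in 2 groups of 3 mice with 1 library each. OEx mice carried Pbsn-Cre and a Rosa26 N1ICD allele, so that the Notch1 intracellular domain was made in the prostatic epithelium, where the probasin promoter drives the recombinase. Ctrl mice are labelled as wild type, and the study's methods describe them as carrying the same Rosa26 N1ICD allele without Cre. Nothing in the labels says that the mice of a group came from separate litters, so p-values measure the spread between these mice.

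As background, initiation starts when eIF2 delivers the initiator tRNA to the small ribosomal subunit, which is held open by eIF1, eIF1A and eIF3 and is recruited to the capped mRNA by eIF4E, eIF4G and the helicase eIF4A. After the start codon is found, eIF5 triggers hydrolysis of the GTP on eIF2, eIF5B joins the large subunit, and eIF2B recharges eIF2 with GTP. In elongation eEF1A brings each aminoacyl-tRNA, eEF2 moves the ribosome by a codon, and eIF5A helps at slow peptide bonds. Cells of a secretory gland depend on these factors for the output of secreted protein, and cells adjust them through mTOR signalling and through the phosphorylation of eIF2, which starts the integrated stress response.

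The libraries of OEx mice held more Notch1 than those of Ctrl mice. Notch1 stood at 41.9, 47.6 and 78.9 FPKM (fragments per kilobase of exon, scaled to depth) in the OEx mice and at 5.18, 5.55 and 3.34 FPKM in the Ctrl mice, and gene counts do not separate the transgene from the endogenous gene. The libraries held 14762180 to 18650964 reads on genes, recovered from the deposited values. The most abundant gene took at most 1.12% of the reads in OEx mice, but 14.3% to 22.0% in Ctrl mice. In both groups mice 1 and 2 were close (r = 0.991 across genes), and mouse 3 stood further off (r = 0.951 and 0.952 in OEx, 0.966 in Ctrl). The recovered reads of mice 1 and 2 differed by a chi-square per gene of 4.36 in OEx and 3.10 in Ctrl. Counting error alone gives about 1. Pairs with mouse 3 had 63.5 and 66.9 in OEx and 102 and 104 in Ctrl. The fits that follow count the 3 mice of a group equally, and why mice 1 and 2 were so alike was not tested. Epithelial markers were present in every mouse, with 7 of 12 called lower and 1 higher in OEx, and their summed level was 3358 to 6801 FPKM in OEx mice against 25256 to 25418 FPKM in Ctrl mice. The secretory genes Pbsn and Tgm4 made up most of that sum, with Pbsn at a mean of 2785 FPKM in OEx and 15621 FPKM in Ctrl. The general epithelial marker Cdh1 went the other way, from 64.2 to 93.6 FPKM in Ctrl to 127 to 131 FPKM in OEx, and Epcam had 310 to 491 FPKM in OEx and 214 to 297 FPKM in Ctrl. Markers of smooth muscle and fibroblasts summed to 311 to 591 FPKM in OEx and 836 to 1723 FPKM in Ctrl, with 4 of 9 called lower, all of them smooth muscle genes. Of the collagens in that list, Col3a1 had 83.9, 84.1 and 3.67 FPKM in OEx mice and 7.95 to 14.7 FPKM in Ctrl mice, and Col1a1 and Col1a2 were likewise high in OEx mice 1 and 2 and low in OEx mouse 3. Endothelial markers summed to 6.52 to 7.66 FPKM in OEx and 17.5 to 23.1 FPKM in Ctrl, with 1 of 5 called lower. Immune markers summed to 211, 194 and 17.5 FPKM in the OEx mice and to 31.4 to 71.3 FPKM in the Ctrl mice, with 1 of the 5 tested of 12 called higher. Skeletal muscle markers summed to 26.1 to 33.6 FPKM in OEx and 188 to 433 FPKM in Ctrl, with 2 of the 3 tested of 7 called lower and Myh1 and Myh4 at 0 in every mouse. Neuronal markers reached at most 3.97 FPKM in all, and the 1 tested of 6 was not called. Seminal vesicle markers were at most 4.36 FPKM in sum in 5 mice but 16128 FPKM in Ctrl mouse 3, with 0 of the 4 tested of 8 called, and markers of cycling cells summed to 6.32 to 8.73 FPKM in OEx and 3.15 to 3.56 FPKM in Ctrl, with 1 of the 3 tested of 5 called higher. The part of these cell types in the results that follow was not tested, and in bulk tissue fewer cells of a type and less RNA per cell cannot be told apart.

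Most translation factor genes were lower in OEx prostates on the deposited scale, and a smaller set was higher. Of the 77 genes, 67 reached a mean of at least 1 FPKM over the 6 mice and were tested together with all other such genes, 12553 in all. Genes were called at FDR under 0.05 and a change above 2-fold, which are the criteria the study used. By this rule 4 of the 67 were called higher, where 12.8% of all tested genes were, and 14 were called lower, where 15.5% of all tested genes were. The share called lower was 20.9% and the share called higher 5.97%. Of the genes called higher, Eif4ebp3 and Eif3s6-ps2 reached the filter only through their OEx level. At FDR alone 12 of the 67 rose (30.9% of all tested genes) and 38 fell (36.5% of all tested genes), which left 17 on neither side. In 13 genes all OEx mice were above all Ctrl mice, against 33.6% of all tested genes, and in 38 all OEx mice were below, against 38.9%. The median log2 fold change was -0.61, with 46 negative and 21 positive values, beside -0.07 over all tested genes. Without Ctrl mouse 3, 4 were called higher and 15 lower, with 16 and 43 at FDR alone and a median of -0.66. Translation factors are abundant, and among genes that averaged 10 FPKM or more the difference from the rest was small. There 13 of 45 were called lower, which is 28.9% beside 28.3% of all such genes, and 1 was called higher, beside 7.26%. Their median was -0.67 beside -0.55. At FDR alone 31 of the 45 were lower, beside 58.6% of all such genes, and 4 were higher, beside 16.9%. The counts by role and by list further on are to be read beside these shares of all genes. All log2 fold changes are OEx over Ctrl on the log2(FPKM + 1) scale, which understates the change of low genes, and each is given with its standard error over 3 mice a group.

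**Figure D1:**
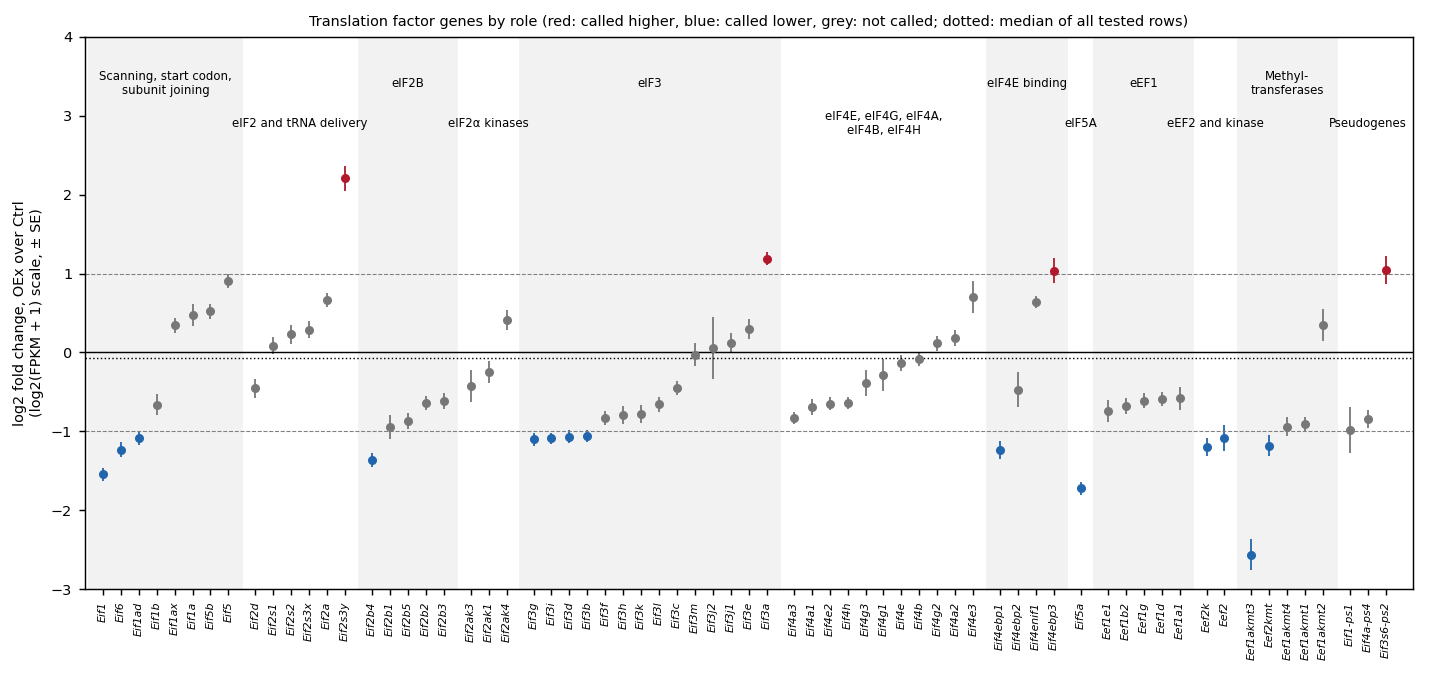
Log2 fold change of OEx over Ctrl, with its standard error, for the 67 tested translation factor genes, ordered by role along the horizontal axis. The 14 genes in blue (called lower) run from -2.56 to -1.06 and the 4 in red (called higher) from 1.04 to 2.20, with dashed lines at a 2-fold change and a dotted line at the median of all tested genes.

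The sign of many of these values depends on how the libraries are scaled to each other. The deposited FPKM values are not scaled to each library's own total: their denominators were 1.22 to 1.35 times the reads on genes in OEx and 0.726 to 0.815 times in Ctrl. For genes above 0 in every mouse, the median ratio to the geometric mean of all mice was 1.007 to 1.012 in each mouse. The deposited values thus already lie on a scale where these median ratios are equal. Every mouse was then rescaled to its library total, taken here and below as the sum of FPKM over named genes and not as reads. With this the median over all tested genes moved from -0.07 to 0.66, and 34.8% of all tested genes were called higher and 3.55% lower. The translation factors then had a median of 0.29, with 18 called higher and only Eef1akmt3 called lower. Relative to the median of all genes they stayed lower under both scalings, by -0.54 as deposited and by -0.37 on library totals. As a share of the reads of a mouse, they took 2.93% to 3.03% in OEx and 2.61% to 2.80% in Ctrl. With the 20 most abundant genes left out of the totals, the median was 0.045 for the translation factors and 0.46 for all tested genes, and which scaling reflects RNA per cell was not tested. Ratios of a pair of genes within a mouse do not depend on the scaling, and are given for that reason.

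**Figure D2:**
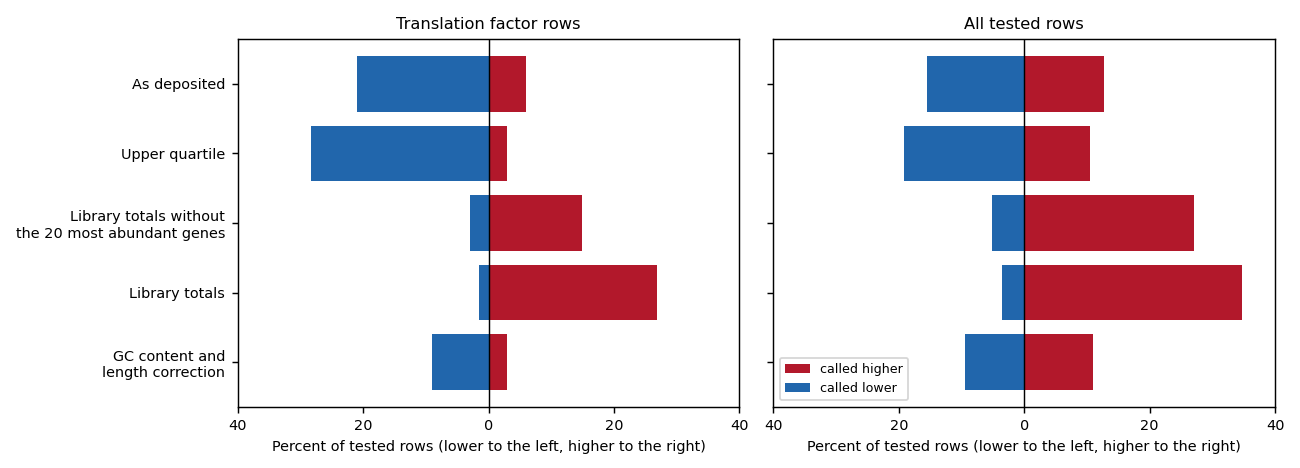
Percent of tested genes called higher (red, to the right of 0) and called lower (blue, to the left of 0) under 5 ways of scaling or correcting the values, for the 67 translation factor genes (left) and for all tested genes (right). As deposited, 14 translation factor genes were called lower and 4 higher, and on library totals 1 was called lower and 18 higher.

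A few sequences show what these genes look like at their 5′ ends. RefSeq promoter windows (GRCm38.p6, 250 bases before to 50 bases after an annotated start) were found for 52 of the 77 genes, several with more than 1 start. Many mRNAs of the translation machinery begin with a run of pyrimidines, by which mTOR controls their translation. A run of at least 8 letters of only C and T within 15 bases of an annotated start was found in 13 of the 52 (25%), beside 13.9% of 27025 genes. The windows are shown because the most abundant factor, Eef1a1, and both copies of the eIF2 gamma subunit have such a run. Capitals mark the longest run.
Eef1a1 (chr9:78481710-78481739, minus strand): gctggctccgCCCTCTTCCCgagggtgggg
Eif2s3x (chrX:94212637-94212666, minus strand): ctgccgagcaTTTTCCTTTTCTCTCCgagc
Eif2s3y (chrY:1010580-1010609, plus strand): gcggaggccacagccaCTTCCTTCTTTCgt
Eif3f (chr7:108934400-108934429, plus strand): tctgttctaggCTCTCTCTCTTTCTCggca
The 11 tested genes with a run had a median log2 fold change of -0.14 and the 38 tested genes without one -0.64.

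Motifs known for transcription factors were searched on both strands of the whole windows, and matches to them can share end letters. The letters TGGGAA, the core bound by RBPJ, the DNA-binding partner of the Notch1 intracellular domain, were found in 16 of the 52 genes (30.8%), beside 28.3% of all genes. The E-box CACGTG, bound by MYC and related factors and the same on both strands, was found in 13 (25%), beside 8.09% of all genes. TGATGNAA, which is part of the element bound by ATF4, was found in 2 (3.85%), beside 4.51%. Of the 10 genes called lower that had a window, 3 held the E-box (Eef2, Eef2k and Eif5a) and 3 the RBPJ core (Eef2k, Eif2b4 and Eif5a), and Eif3a, 1 of the 2 genes called higher that had a window, held both. The windows that follow are from called genes, and capitals mark the E-box in the top 3 and the RBPJ core in the lower 2.
Eef2 (chr10:81176576-81176605, plus strand): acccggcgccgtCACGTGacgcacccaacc
Eef2k (chr7:120842788-120842817, plus strand): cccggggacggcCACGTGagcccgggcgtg
Eif5a (chr11:69921443-69921472, minus strand): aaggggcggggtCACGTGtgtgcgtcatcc
Eif3a (chr19:60790880-60790909, minus strand): gcaaatttccctTTCCCActctgtgtccgc
Eif2b4 (chr5:31193184-31193213, minus strand): gacgctcctaatTGGGAAcccaacatcctt
A match to these letters is not a bound site.

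Among the factors of scanning, start codon choice and subunit joining, 4 of 8 fell and 4 rose at FDR under 0.05, with 3 called lower, and the median of -0.16 became 0.69 on library totals. Eif1 (chr11:100319885-100322096), which keeps the scanning subunit open and raises the stringency of start codon choice, had 114, 107 and 102 FPKM in OEx mice and 320.0, 305 and 321 FPKM in Ctrl mice. The groups did not overlap, and the log2 fold change was -1.54 ± 0.08 (FDR = 3.18e-05). Eif5 (chr12:111538016-111546752), which triggers GTP hydrolysis on eIF2 and lowers that stringency, had 36.4, 34.0 and 39.9 FPKM in OEx and 19.0, 18.1 and 20.4 FPKM in Ctrl. It moved the other way, by 0.90 ± 0.09 (FDR = 2.27e-04), just under the 2-fold limit. Within each mouse the ratio of Eif5 to Eif1 was 0.320, 0.317 and 0.389 in OEx and 0.0593, 0.0594 and 0.0634 in Ctrl. It was 5.62-fold higher in OEx whatever the scaling between mice and 2.37-fold higher after the correction for GC content and exon length described further on, and this pair was picked with its values known.

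Eif6, which keeps the large subunit from joining too early and is needed for its assembly, had 25.6, 27.0 and 23.7 FPKM in OEx and 59.3, 57.1 and 67.1 FPKM in Ctrl. Its log2 fold change was -1.23 ± 0.10 (FDR = 8.40e-05). Eif1ad, which encodes a protein with an eIF1A-like domain, fell by 1.09 ± 0.09 and shares exon positions with Banf1 on the other strand. The remaining genes of this group were not called, although each passed FDR. Eif1b, a second copy of eIF1, fell by 0.66 ± 0.13, and Eif5b, Eif1a and Eif1ax rose by 0.52, 0.47 and 0.35. After that correction Eif5b, Eif1a and Eif1ax stood at -0.11, -0.20 and -0.42, and Eif1b at 0.065. Eif1b fell less than Eif1, and the ratio of Eif1b to Eif1 was 0.206, 0.194 and 0.170 in OEx against 0.0957, 0.104 and 0.113 in Ctrl, a 1.82-fold rise (2.15-fold after that correction). Eif1 is 94 to 97% identical to its 3 pseudogenes over their length, so that reads could be split among them, but only Eif1-ps1 reached the filter, at 0.336 to 3.99 FPKM.

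**Figure D3:**
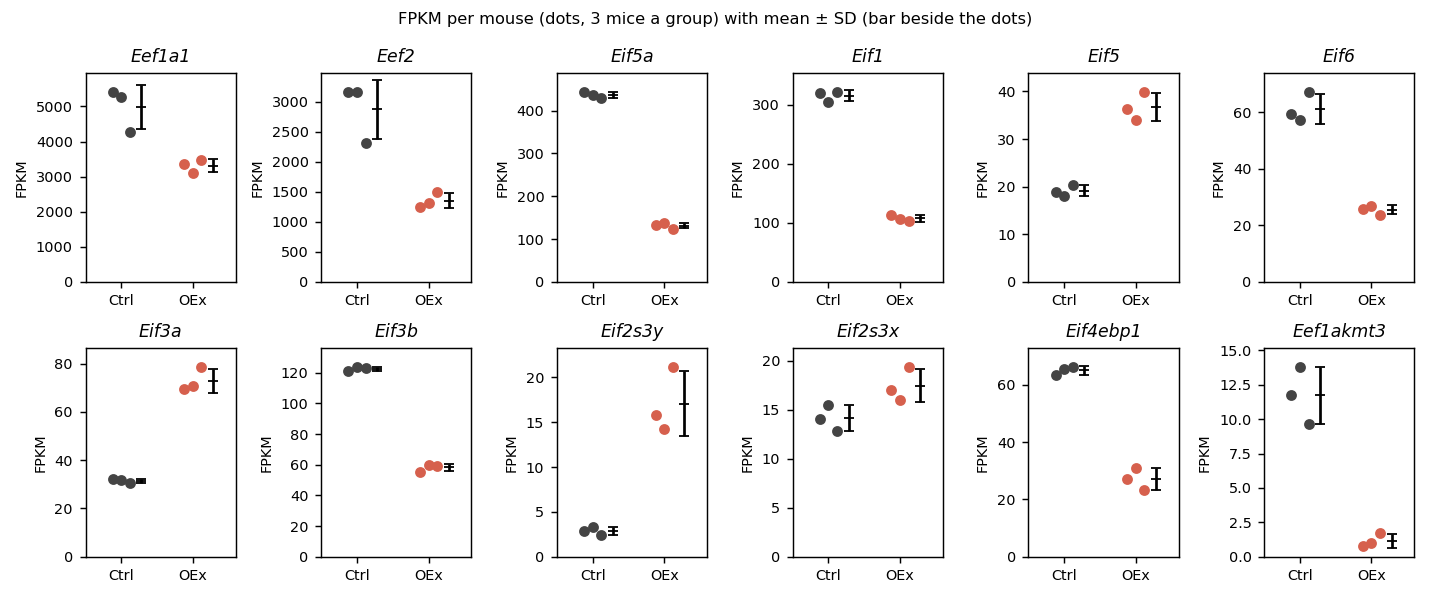
FPKM in every mouse for 12 genes that the text describes, with the mean and SD of the 3 mice of each group beside the dots and every axis starting at 0. Eif5, Eif3a, Eif2s3y and Eif2s3x lie above every Ctrl mouse in every OEx mouse, and the other 8 genes lie below.

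The subunits of eIF2 and the related tRNA-delivery factors had a median of 0.26 (1.09 on library totals and -0.25 after the GC content and length correction), with 1 of 6 genes called higher and none lower. At FDR 2 rose and 1 fell. Eif2s1, the alpha subunit that the stress kinases phosphorylate, had 10.01, 10.02 and 8.26 FPKM in OEx and 9.35, 8.05 and 9.05 FPKM in Ctrl, and these ranges overlapped (0.08 ± 0.11). Eif2s2, the beta subunit, overlapped as well (0.23 ± 0.12). Eif2a, a separate factor that can bring the initiator tRNA without eIF2, rose by 0.67 ± 0.09, from 7.15, 6.97 and 7.63 FPKM to 11.8, 11.2 and 13.2 FPKM. After the GC content and length correction its value was -0.12. Eif2d, another factor of the same kind as Eif2a, fell by 0.46 ± 0.12.

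The gamma subunit, which holds GTP and the initiator tRNA, has a copy on each sex chromosome in the mouse. Eif2s3y (chrY:1010543-1028847), the Y-linked copy, was the gene with the largest rise among the 67. It had 15.8, 14.3 and 21.1 FPKM in OEx mice and 2.92, 3.32 and 2.42 FPKM in Ctrl mice (2.20 ± 0.16, FDR = 7.37e-05). Eif2s3x (chrX:94188707-94212862), the X-linked copy, had 17.0, 16.0 and 19.3 FPKM in OEx and 14.1, 15.5 and 12.8 FPKM in Ctrl, a difference of 0.29 ± 0.11 that just missed the threshold (FDR = 0.051). The ratio of the Y copy to the X copy was 0.928, 0.891 and 1.09 in OEx and 0.208, 0.215 and 0.189 in Ctrl. In OEx prostates both copies were thus at about the same level, and in Ctrl prostates the X copy prevailed, a 4.76-fold difference in the ratio that no scaling between mice can change. After the GC content and length correction it came to 2.47-fold, and with 1 FPKM added to both genes the log2 difference went from 2.25 to 1.92. The copies are 86.4% identical over 1426 bases, so that some reads could be assigned to either.

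All 5 subunits of eIF2B, the exchange factor that recharges eIF2 with GTP, fell at FDR under 0.05, with a median of -0.87 that came to -0.00 on library totals. Of all tested genes 36.5% fell at FDR, and of those that averaged 10 FPKM or more 58.6%. Eif2b4, the delta subunit, was the only one called. It had 11.3, 12.2 and 13.2 FPKM in OEx and 32.4, 31.6 and 35.1 FPKM in Ctrl (-1.36 ± 0.09, FDR = 4.95e-05), and it shares exon positions with Snx17 on the other strand. Eif2b1, the alpha subunit, fell by 0.94 ± 0.15. Eif2b5, the catalytic epsilon subunit, fell by 0.87 ± 0.10, Eif2b2, the beta subunit, by 0.64 ± 0.09 and Eif2b3, the gamma subunit, by 0.62 ± 0.10. Set against the eIF2 alpha subunit in the same mouse, Eif2b4 was 1.13, 1.22 and 1.59 times as high in OEx and 3.46, 3.92 and 3.88 times as high in Ctrl, so that the ratio was 2.88-fold lower in OEx, and 1.11-fold lower after the GC content and length correction (a pair picked with its values known).

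None of the 3 eIF2 alpha kinases in the set was called, and their median of -0.25 became 0.57 on library totals. Eif2ak4, also known as GCN2, the sensor of uncharged tRNA, passed FDR with a rise of 0.41 ± 0.13, from 2.97, 2.86 and 2.27 FPKM to 3.73, 3.54 and 4.51 FPKM. Eif2ak3, also known as PERK, the sensor of unfolded protein in the endoplasmic reticulum, had 8.52, 8.34 and 10.8 FPKM in OEx and 14.4, 15.4 and 9.01 FPKM in Ctrl. Ctrl mouse 3 lay among the OEx mice (-0.42 ± 0.21, FDR = 0.109). Eif2ak1, the heme-regulated kinase, overlapped too (-0.25 ± 0.14).

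In eIF3, the largest initiation factor and the scaffold on the small subunit, the subunits did not move as a unit. Of 14 tested genes 9 fell and 1 rose at FDR under 0.05, beside 36.5% and 30.9% of all tested genes. By the full rule 4 were called lower and 1 higher, beside 15.5% and 12.8%. Of all genes that averaged 10 FPKM or more, 58.6% fell at FDR and 28.3% were called lower, so the falls were near that share. The median of -0.72 became 0.17 on library totals. The 4 called lower were the 3 subunits of the module near the mRNA entry channel, Eif3b, Eif3g and Eif3i, and Eif3d, a subunit that can bind the cap. Eif3b had 55.6, 59.9 and 59.5 FPKM in OEx and 121, 124 and 123 FPKM in Ctrl (-1.06 ± 0.07). Eif3i had 41.8, 42.7 and 42.6 FPKM against 92.9, 89.6 and 91.5 FPKM (-1.09 ± 0.07). The mice of a group lay close together in both genes. Eif3g fell by 1.10 ± 0.08 and Eif3d by 1.07 ± 0.08, and the latter shares exon positions with Gm17638 on the other strand.

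Eif3a (chr19:60761117-60790658), the largest subunit, around which the complex is built, went the other way. It had 69.5, 70.8 and 78.6 FPKM in OEx mice and 32.1, 31.7 and 30.6 FPKM in Ctrl mice (1.19 ± 0.08, FDR = 5.79e-05). Set against Eif3b, its partner in the complex, it was 1.25, 1.18 and 1.32 times as high in OEx and 0.265, 0.256 and 0.249 times as high in Ctrl. This 4.87-fold difference holds under any scaling between mice and came to 2.32-fold after the GC content and length correction, and the pair was picked with its values known. Of the other subunits of the octamer to which Eif3a belongs, 5 fell by less than 2-fold and were not called: Eif3f by 0.83, Eif3h by 0.79, Eif3k by 0.78, Eif3l by 0.66 and Eif3c by 0.45. Its remaining members, Eif3m (-0.03 ± 0.14) and Eif3e (0.30 ± 0.12), passed no threshold. Eif3j1 (0.12 ± 0.13) and Eif3j2 (0.06 ± 0.39), the copies of the loosely bound j subunit, are 99.4% identical over 2379 bases, so the split of reads between them is uncertain.

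No gene of the cap-binding and helicase factors was called, out of 11 tested. At FDR under 0.05, 4 fell and 1 rose, and the median of -0.29 became 0.60 on library totals. Eif4e, which binds the cap, had 6.52, 6.30 and 5.98 FPKM in OEx and 6.19, 7.83 and 7.04 FPKM in Ctrl, and the groups overlapped (-0.14 ± 0.10). Of its relatives, Eif4e2 fell by 0.65 ± 0.09 and Eif4e3 rose by 0.70 ± 0.21, from 2.22, 1.29 and 2.56 FPKM to 4.27, 4.43 and 2.95 FPKM. Eif4e1b, an oocyte form of the cap-binding protein, had no read in 5 mice and 6 reads in Ctrl mouse 2 and was not tested.

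The scaffold Eif4g1 had 62.7, 64.6 and 78.6 FPKM in OEx and 95.7, 100.2 and 60.7 FPKM in Ctrl, where mouse 3 stood apart from the other two (-0.29 ± 0.21). Eif4g3 (-0.39 ± 0.17) and Eif4g2 (0.11 ± 0.09), which lacks the eIF4E-binding part and serves cap-independent initiation, passed no threshold either. The ratio of Eif4g3 to Eif4g1 was 1.10-fold lower in OEx, with values of 0.115 to 0.118 against 0.120 to 0.136, and the ratio of Eif4g2 to Eif4g1 overlapped between groups. The paralogous helicases differed from each other. Eif4a1, the main form, fell from 135, 138 and 138 FPKM to 91.7, 88.3 and 73.7 FPKM (-0.70 ± 0.10), and Eif4a2 had 104, 92.5 and 104 FPKM in OEx and 86.9, 82.3 and 95.5 FPKM in Ctrl (0.18 ± 0.10). The ratio of Eif4a2 to Eif4a1 was 1.14, 1.05 and 1.41 in OEx and 0.646, 0.595 and 0.692 in Ctrl, so that Eif4a2 was the higher of the pair in every OEx mouse and the lower in every Ctrl mouse. The difference in this ratio was 1.85-fold, and 1.23-fold after the GC content and length correction. Eif4a3, a helicase of the exon junction complex, fell by 0.83 ± 0.08, Eif4h, a helicase cofactor, fell by 0.64 ± 0.07, and Eif4b, another cofactor, stayed within the spread (-0.08 ± 0.09). The pseudogene Eif4a-ps4 is 99.9% identical to Eif4a1 over its 1218 bases and moved with it (-0.84 ± 0.11), so its level cannot be told from that of Eif4a1.

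The proteins that bind eIF4E went in opposite directions, with 1 of 4 called lower and 1 higher, and a median of 0.09 (0.92 on library totals). Eif4ebp1 (chr8:27260329-27276674), the repressor that mTOR phosphorylates to free eIF4E, had 27.1, 31.1 and 23.3 FPKM in OEx mice and 63.4, 65.6 and 66.2 FPKM in Ctrl mice (-1.24 ± 0.11, FDR = 1.48e-04). Set against Eif4e in the same mouse it was 4.16, 4.93 and 3.90 times as high in OEx and 10.2, 8.38 and 9.40 times as high in Ctrl, a 2.16-fold lower ratio, which came to 1.05-fold lower after the GC content and length correction. Eif4ebp2, the more abundant repressor, had 92.9, 93.4 and 124 FPKM in OEx and 168, 165 and 103 FPKM in Ctrl. Ctrl mouse 3 lay among the OEx mice, and neither the level (-0.47 ± 0.22, FDR = 0.097) nor the ratio to Eif4e passed a threshold. Eif4ebp3 rose from 0.215, 0.623 and 0.531 FPKM to 1.82, 2.23 and 1.86 FPKM (1.04 ± 0.15). It had 2, 6 and 6 reads in the Ctrl mice, and Ctrl mouse 1 lay under the level of 3 reads (0.322 FPKM). Its Ctrl mean was 0.456 FPKM, so it reached the filter only through its OEx level. It was no longer called without OEx mouse 2 or without Ctrl mouse 1 (0.91 at the lowest) or under upper-quartile scaling (0.96), and it shares exon positions with AC115631.1 on the same strand. Eif4enif1, the transporter that carries eIF4E into the nucleus, rose by 0.64 ± 0.08.

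Eif5a (chr11:69916714-69921958), which carries the modified lysine hypusine and helps the ribosome over stretches such as prolines, had the largest fall of the abundant factors. It had 133, 137 and 125 FPKM in OEx mice and 443, 436 and 429 FPKM in Ctrl mice, a fall of 1.72 ± 0.08 on the log2 scale (FDR = 2.64e-05), and -0.82 on library totals. Its pseudogene Eif5al3-ps, 97.2% identical over 434 bases, had at most 2 reads in a mouse. Eif5a2, the second isoform, was under the filter, with 39, 41 and 35 reads in OEx and 2, 11 and 13 reads in Ctrl. Its ratio to Eif5a was higher in every OEx mouse than in any Ctrl mouse, but remained at most 0.003 in OEx. Both enzymes that make hypusine were called lower as well. Dhps, which transfers the aminobutyl group, fell by 1.08 ± 0.08, from 20.0, 19.1 and 20.4 FPKM to 8.48, 8.81 and 9.23 FPKM. Dohh, which completes the modification, fell by 1.81 ± 0.13, from 24.4, 22.5 and 26.0 FPKM to 5.36, 7.41 and 5.95 FPKM. Among the 9 genes in the list of enzymes that modify translation factors these were the only called genes (0 higher and 2 lower, median -0.26), and the list had 1 called higher and 0 lower on library totals. After the GC content and length correction it had 0 higher and 2 lower (median -0.43).

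Elongation factors were the most abundant of all, and Eef1a1 and Eef2 together made up 61.4% to 66.3% of the summed FPKM of the 77 genes in each mouse. Eef1a1, which brings the aminoacyl-tRNA, had 3365, 3111 and 3461 FPKM in OEx and 5406, 5279.9 and 4276 FPKM in Ctrl (-0.58 ± 0.14, FDR = 0.00981). Its exchange factor subunits moved by a similar amount, with Eef1b2 at -0.67 ± 0.10, Eef1g at -0.61 ± 0.10 and Eef1d at -0.59 ± 0.09, and Eef1e1, which belongs to the complex of tRNA synthetases, at -0.74 ± 0.14. All 5 tested genes of this group fell at FDR under 0.05, beside 36.5% of all tested genes and 58.6% of those that averaged 10 FPKM or more. None was called, and the median of -0.61 became 0.29 on library totals. Eef1a2, the form of muscle and neurons, had at most 1 read in a mouse.

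Eef2, the translocase, fell further than Eef1a1. It had 1252, 1309 and 1492 FPKM in OEx and 3163, 3164 and 2314 FPKM in Ctrl (-1.08 ± 0.16, FDR = 0.0012), and -0.18 on library totals. The ratio of Eef2 to Eef1a1 was 0.372, 0.421 and 0.431 in OEx and 0.585, 0.599 and 0.541 in Ctrl, which is 1.41-fold lower in OEx, and 1.11-fold lower after the GC content and length correction (a pair picked with its values known). Eef2k, the kinase that switches eEF2 off, was called lower as well, from 22.3, 22.8 and 19.7 FPKM to 7.87, 8.46 and 10.2 FPKM (-1.20 ± 0.12, FDR = 1.86e-04), and shares exon positions with Gm15774 on the other strand. Both fell, and the ratio of kinase to substrate was 1.16-fold lower in OEx, or 1.54-fold lower after the GC content and length correction (0.00629 to 0.00687 in OEx and 0.00706 to 0.00851 in Ctrl).

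The methyltransferases of the elongation factors held the largest fall of all. Eef1akmt3, which methylates a lysine of eEF1A, had 0.793, 0.965 and 1.75 FPKM in OEx mice and 11.7, 13.8 and 9.66 FPKM in Ctrl mice (-2.56 ± 0.20, FDR = 8.27e-05). It was the only translation factor gene called lower under every scaling and correction tried, with -1.91 on library totals, and shares exon positions with Mettl1 on the other strand. Eef2kmt, the lysine methyltransferase of eEF2, fell by 1.18 ± 0.13 and shares exon positions with Alg1. Eef1akmt1 (-0.91 ± 0.09) and Eef1akmt4 (-0.94 ± 0.12) fell without a call, and Eef1akmt2 passed no threshold (0.35 ± 0.20). The group had 4 of 5 genes lower at FDR under 0.05, and its median was -0.94, or -0.27 on library totals.

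Of the rows with a pseudogene symbol and Eif2c5, 3 of 10 were tested. Eif3s6-ps2 was called higher, from 0.730, 1.06 and 1.20 FPKM to 4.12, 2.80 and 2.53 FPKM (1.04 ± 0.18). Its Ctrl mean was 0.997 FPKM, just under the filter. It is 96.0% identical to Eif3e over 1338 bases, so reads of Eif3e could be counted for it, and it was no longer called without OEx mouse 1 or without Ctrl mouse 1 (0.88 at the lowest), under upper-quartile scaling (0.95) or after the GC content and length correction (0.76). Eif1-ps1 was lower at FDR (-0.98 ± 0.29) with at most 3.99 FPKM. Of the other 7, Eif1-ps3, Eif2c5, Eif3s6-ps1 and Eif3s6-ps4 had no read in any mouse, where a count of 0 allows up to 3 reads, Eif2s3x-ps1 had 1 read in 1 mouse, Eif1-ps2 at most 7 and Eif5al3-ps at most 2. These limits cover counting error only. In all, 28 of the 77 genes share exon positions with another annotated gene, and since the use of strand in counting is not given, reads of such pairs cannot be told apart.

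Within-mouse ratios were fixed for 11 pairs of paralogs or of a factor and its regulator, a list made with earlier results of these data known. Of the 11 pairs, 10 had no value of 0. In 8 of these the groups did not overlap, in 6 with 1 FPKM added to both genes, when Eef2k to Eef2 and Eif4g3 to Eif4g1 overlapped, and in all 10 without Ctrl mouse 3. With 3 mice against 3, the two-sided exact permutation test cannot go below p = 0.1, the value reached by each of the 8 (0.125 after Benjamini-Hochberg adjustment over the 10), so none could pass 0.05. The ratios that overlapped were Eif4ebp2 to Eif4e (p = 0.3) and Eif4g2 to Eif4g1 (p = 0.2), both by this exact test. These ratios do not depend on the scaling between mice, but the genes of a pair can differ in GC content: Eif5 and Eif1 have 41.7% and 50.9%, Eif3a and Eif3b 44.5% and 55.9%, and Eif2s3y and Eif2s3x 36.4% and 44.1%. The ratio of Eif4e2 to Eif4e was 1.48-fold lower in OEx, with 1.01, 1.19 and 1.17 against 1.92, 1.52 and 1.55, but its direction turned after the GC content and length correction (1.12-fold higher).

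**Figure D4:**
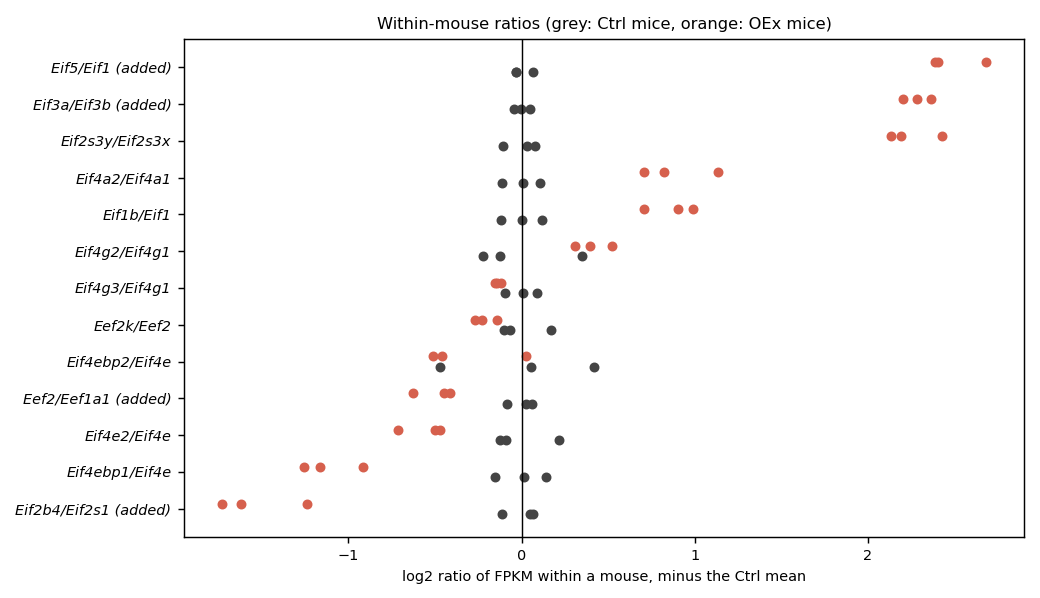
Log2 ratio of the FPKM of a pair of genes within each mouse, minus the mean of the Ctrl mice, for 9 of the fixed pairs and the 4 added pairs (Eif5a2 to Eif5a, with few reads, is left out). Orange dots are OEx mice and grey dots Ctrl mice, and the ratios of Eif5 to Eif1, Eif3a to Eif3b and Eif2s3y to Eif2s3x lie at 2.49, 2.28 and 2.25 on average in OEx.

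The genes that fell were on the whole richer in G and C than those that rose. Over the 67 genes, the log2 fold change ran against the GC content of the longest transcript, with Pearson's r = -0.65 and Spearman's rho = -0.63, values across genes that share the same libraries. Over 12465 genes with a GC value the same coefficients were -0.33 and -0.37. Of the 20 translation factor genes under 45% GC, 3 were called higher and 0 lower, with a median of 0.29, beside 26.5% higher, 5.18% lower and a median of 0.55 for all such genes. Of the 47 with 45% or more, 1 was called higher and 14 lower, with a median of -0.78, beside 8.58% higher, 18.6% lower and -0.26. Eif5, Eif3a, Eif2s3y, Eif1a and Eif1ax lie in the lower range and Eif1, Eif5a, Eif6, Eef2 and Eif3b in the upper. With log2 exon length, Pearson's r was 0.29 and Spearman's rho 0.40.

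A smooth trend on GC content, and then on exon length, was taken out of the log2 values of each mouse before the fit. Genes without a GC value were left as they were. After this 2 of the 67 genes were called higher, beside 11% of all genes, and 6 lower, beside 9.52%. Eif2s3y (1.31) and Eif4ebp3 (1.75) kept their call upward, and Eef1akmt3 (-2.17), Eef2k (-1.17), Eif5a (-1.09), Eif3i (-1.07) and Eif1 (-1.04) downward, while Eif1-ps1 became called. Eif3a came to 0.66, Eif5 to 0.21, Eef2 to -0.55 and Eif6 to -0.60. The median of the 67 was then -0.41, with all genes at 0 by construction. Whether the trend is one of the genes or of the libraries was not tested.

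**Figure D5:**
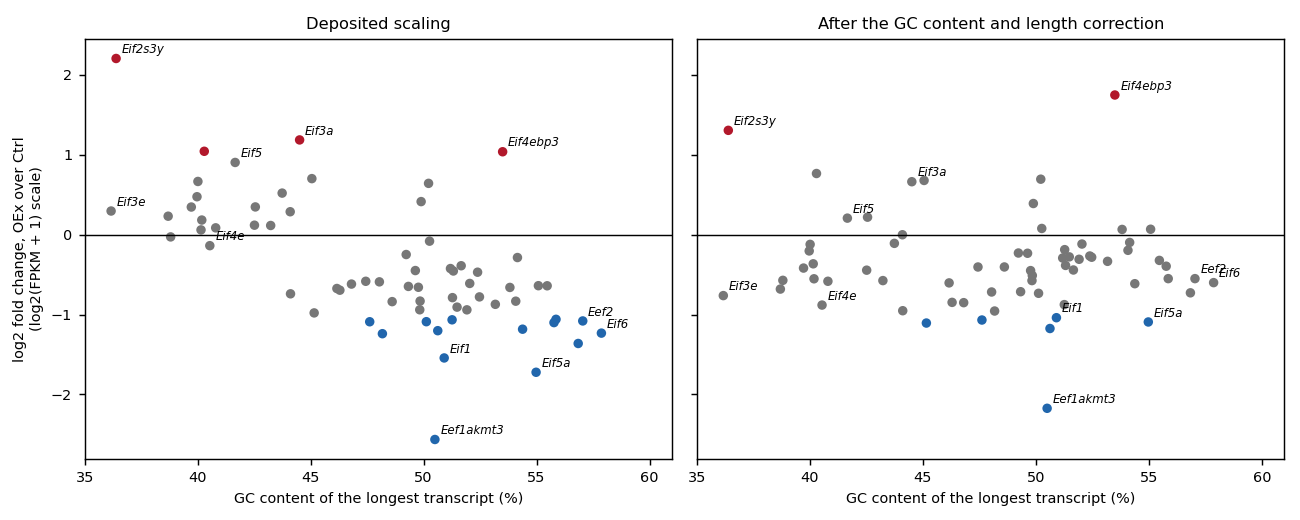
Log2 fold change of OEx over Ctrl for the 67 tested genes against the GC content of their longest transcript in percent, as deposited (left) and after the correction for GC content and exon length (right), with called genes in red (higher) and blue (lower). On the left the values fall with GC content (r = -0.65). On the right Eif2s3y, Eif4ebp3, Eef1akmt3, Eef2k, Eif5a, Eif3i, Eif1 and Eif1-ps1 lie beyond a 2-fold change.

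Genes that control these factors were described from lists. In the list of the integrated stress response, 7 of 12 genes were called lower and 1 higher, beside 15.5% and 12.8% of all tested genes. The median was -1.57. On library totals 5 were still called lower, beside 3.55%, and after the GC content and length correction 7, beside 9.52%. Atf4, the transcription factor whose mRNA is translated when eIF2 is phosphorylated, had 47.7, 43.2 and 46.1 FPKM in OEx and 207, 208 and 205 FPKM in Ctrl (-2.16 ± 0.08). Of its known targets, 6 were called lower. Chac1, which degrades glutathione, fell by 4.77 ± 0.09, from 68.0, 66.9 and 67.2 FPKM to between 1.32 and 1.71 FPKM. Asns, asparagine synthetase, fell by 3.99 ± 0.18, from 157, 157 and 101 FPKM to 7.55, 7.24 and 8.08 FPKM. Trib3 (-2.25), Atf3 (-1.96), Ddit3 (-1.55) and Ppp1r15a (-1.58), which brings the phosphatase of eIF2 alpha, were also called. Sesn2 fell without a call (-0.997 ± 0.15), and Cebpb (-0.63 ± 0.33), Ppp1r15b (-0.32 ± 0.15) and Nupr1 (-0.23 ± 0.35) passed no threshold. Eif2ak2, the kinase that senses double-stranded RNA and was left out of the symbol rule, rose by 1.43 ± 0.15, from 1.298, 1.31 and 0.695 FPKM to 4.54, 4.32 and 4.97 FPKM.

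The aminoacyl-tRNA synthetases, which load the tRNAs that eEF1A carries, had 10 of 22 called lower and 0 higher, beside 15.5% and 12.8% of all tested genes. At FDR 17 were lower, beside 36.5%, or 58.6% of all genes that averaged 10 FPKM or more. Their median was -0.96, which came to -0.08 on library totals with 3 still called lower. After the GC content and length correction 13 were called lower, beside 9.52% of all genes, with a median of -1.07. Sars, the seryl-tRNA synthetase, fell by 2.23 ± 0.13, from 150.2, 149.8 and 116 FPKM to 27.1, 27.8 and 31.3 FPKM, and Yars by 2.03 ± 0.13. Cars, Aars, Gars, Mars, Qars, Nars, Farsb and Lars fell by 1.82 to 1.21. In the mTOR list 1 of 16 genes was called higher, Rps6kb1, the S6 kinase (1.02 ± 0.13), and 1 lower, Akt1s1, an inhibitory subunit of the complex (-1.34 ± 0.07), with a median of -0.05, or 0.74 on library totals. Among 18 genes of poly(A)-binding, termination and ribosome rescue, Gspt2 (1.26), Abce1 (1.10) and Ddx3x (1.09) were called higher and Pelo (-1.07) and Paip2b (-1.07) lower, with a median of -0.08, or 0.66 on library totals. Of 9 mitochondrial translation factors only Mtif2, the mitochondrial initiation factor, was called (1.49 ± 0.13), and the median was 0.09, or 0.78 on library totals. After the GC content and length correction the mTOR list had 0 genes called in either direction. The list of poly(A)-binding, termination and rescue genes then had 1 higher and 1 lower, and the mitochondrial list 1 higher and 0 lower.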

How the data were processed

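RNA-seq of 6 anterior prostates was analysed. The authors deposited a table of FPKM per gene and mouse. The submitters' processing notes name CASAVA, HISAT2 2.0.5, featureCounts 1.5.0-p3 and StringTie 1.3.3b, and the genome build is not given in the sources used here. Low FPKM values were whole multiples of a step per gene, which gave back the reads (96.9% to 97.5% of values under 1000 reads were whole within 0.05), so that 3 reads are 0.161 to 0.203 CPM. The 544 rows without a name (0.632% to 1.21% of FPKM) were left out. log2(FPKM + 1) was fitted for OEx against Ctrl with limma 3.58.1 (R 4.3.3, moderated with an intensity trend) over genes averaging 1 FPKM or more, with Benjamini-Hochberg adjustment over all of them, and was tested on simulated data. Ratios within a mouse used an exact permutation test (scipy 1.17.1). Places, overlaps, exon lengths and GC content came from GENCODE on GRCm38, with 53636 of 54532 named genes matched by symbol, and identities from blastn 2.17.0. Alternatives covered the pseudocount, the filter, 3 scalings, limma-voom on the recovered reads with the deposited scaling, a lowess correction on GC content and length, the replicate number as a block, leaving out each mouse, and for the ratios 1 FPKM added to both genes. Named genes are those called, the highest and lowest of each role, both genes of each fixed pair and the called genes of each list, and others are given to complete a complex or role. Members, lists and pairs were chosen with earlier results of these data known.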

Additional observations from a re-analysis of the deposited data

How the results depend on the processing

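As reported, 4 translation factor genes were called higher and 14 lower, 12 rose and 38 fell at FDR alone, and the median log2 fold change was -0.61. Leaving out each mouse in turn gave 2 to 4 higher, 14 to 16 lower, 9 to 16 and 37 to 43 at FDR alone, and a median of -0.66 to -0.59, with 2 higher without Ctrl mouse 1. A pseudocount of 0.1 gave 4 and 16, no filter gave 4 and 14 with a median of -0.58, and a mean of at least 10 FPKM gave 1 and 13, with 5 higher at FDR and a median of -0.67 among 45 genes. Library totals gave 18 and 1 (26 and 6 at FDR, median 0.29), and totals without the 20 most abundant genes gave 10 and 2 (23 and 15, median 0.045). Upper-quartile scaling gave 2 and 19 with a median of -0.74, and limma-voom on the recovered reads 4 and 16. The GC content and length correction gave 2 and 6 with -0.41 without and with the replicate block, and 6 higher at FDR with it. Without mouse 3 of both groups, an alternative added after seeing the data, 4 and 15 were called. Among genes that meet the naming rule above, the sign turned on library totals for Eef1a1 (0.32), Eif1b (0.21), Eif2ak3 (0.40), Eif2b3 (0.0094), Eif2d (0.33), Eif4a1 (0.20), Eif4a3 (0.048), Eif4e (0.64), Eif4e2 (0.16), Eif4ebp2 (0.42), Eif4g1 (0.60) and Eif4g3 (0.42). Outside that rule, it turned on library totals for Eif2b2 (0.23), Eif2ak1 (0.57), Eif4b (0.81), Eif4h (0.25) and Eif4a-ps4 (0.046). The same held for Eif3c (0.44), Eif3f (0.066), Eif3h (0.11), Eif3k (0.11), Eif3l (0.23) and Eif3m (0.86), and for Eef1b2 (0.22), Eef1d (0.29) and Eef1g (0.29). For genes under the naming rule, the sign turned on totals without the 20 genes for Eef1a1 (0.074), Eif2ak3 (0.18), Eif2d (0.11), Eif4e (0.43), Eif4ebp2 (0.18), Eif4g1 (0.36) and Eif4g3 (0.20), and on the upper quartile for Eif2s1 (-0.056) and Eif4g2 (-0.041). With the GC content and length correction, with or without the replicate block, it turned for Eif1b (0.065), Eif2s1 (-0.58), Eif2s3x (-0.0016), Eif4a2 (-0.55) and Eif4g2 (-0.58). Among genes outside the naming rule, this correction turned the sign of Eif1a (-0.20), Eif1ax (-0.42), Eif5b (-0.11), Eif2a (-0.12) and Eif2s2 (-0.68). The same held for Eif3e (-0.76), Eif3j1 (-0.44), Eif3j2 (-0.37), Eif2b2 (0.067) and Eif4b (0.077). The within-mouse ratio of Eif4e2 to Eif4e turned from -0.56 to 0.17 on the log2 scale with this correction, an alternative added after seeing the data. Of 10 fixed pairs, 8 did not overlap as reported, 8 to 10 without each mouse in turn and 6 with 1 FPKM added. A scaling shifts all genes by construction, and the cause of the other changes was not tested. The replicate numbers do not pair the mice (mean r of same-numbered deviations -0.24, other pairs 0.10), and the replicate block gave 4 higher and 14 lower calls, with 9 and 36 at FDR alone. Depth limits the genes under the filter, which, apart from Eif5a2, had at most 7 reads in a mouse.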

Other observations

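Beside Eif2s3y, other genes of the sex chromosomes, chosen after their values were seen, were higher in OEx prostates. Of the Y-linked genes, Kdm5d, a histone demethylase, had 2.70, 2.49 and 3.11 FPKM in OEx mice and 0.754, 0.749 and 0.890 FPKM in Ctrl mice (1.07 ± 0.11), Ddx3y, an RNA helicase, differed by 0.94 ± 0.12 and Uty by 0.46 ± 0.10. Eif2s3y differed by more than these (2.20 ± 0.16), although the difference between the genes was not tested. Of their X-linked relatives, Ddx3x (1.09 ± 0.11) and Kdm6a (1.13 ± 0.13) were called higher and Kdm5c overlapped between the groups (-0.02 ± 0.23). The genes given here as higher have 35.8% to 43.8% GC, and Kdm5c has 52.8%. Of all tested genes under 45% GC, 57.9% were higher at FDR under 0.05 and 26.5% were called higher, with a median of 0.55. The part of GC content in these differences was not tested.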
